A study of Bos taurus with 16 samples.

Results

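The genes of cytokines, chemokines and their receptors are described here in primary cultures of bovine theca interna cells, which surround the ovarian follicle and make its androgens. The members are the 91 genes, of 9155 named on the array, whose symbol in the platform annotation starts with CCL, CXCL, CCR, CXCR, CSF or TNF or with IL and a digit, plus GRO1, the annotation's symbol for CXCL1. Where a gene had several probe sets, the brightest on average over the 16 arrays stands for it, a choice that uses no comparison between groups. Cells pooled from about 50 follicles of 4 to 6 mm were cultured for 6 days without serum, and treatments were present from day 3 to day 6. The 4 groups were LH+BMP6 (luteinising hormone at 160 pg/ml together with bone morphogenetic protein 6 at 10 ng/ml), BMP6 (10 ng/ml), LH (160 pg/ml) and control (neither). Each group held 4 arrays, from 4 cultures of cells from different batches of slaughterhouse ovaries, and none of the groups received serum. Levels are log2 signals, and each difference is a log2 difference ± SE from limma's fit over all 16 arrays, called at an adjusted p under 0.05 over 24016 probe sets. Arrays of a group are given in the order of replicate numbers 1 to 4.

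Cytokines are secreted proteins by which cells change the behaviour of their neighbours. Interleukin 1 and tumour necrosis factor act through receptors that switch on NF-kB, interleukin 6 and many others through receptors coupled to JAK kinases and STAT factors, and chemokines through G protein-coupled receptors that guide leukocytes along a gradient. In the ovary they are known for the leukocyte influx and tissue remodelling around ovulation and in the corpus luteum, and both stromal cells and resident leukocytes produce them. The members comprise 14 CC chemokines, 12 CXC chemokines, 8 chemokine receptors, 20 interleukin ligands (the antagonist IL1RN included), 19 interleukin receptor chains, 3 colony-stimulating factors and 2 of their receptor chains, 4 ligands and 7 receptors of the TNF family, and 2 TNF-induced genes, TNFAIP1 and TNFAIP6, which are neither cytokine nor receptor.

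The cell type named by the labels was set against marker lists. The theca marker list (8 genes measured, INSL3 and CYP17A1 among them) had a mean level of 9.81 to 10.43 on the control arrays. Leukocyte markers were present too, with a mean level of 7.67 in control for the T cell receptor component CD3E, 8.18 for the pan-leukocyte gene PTPRC and 11.89 for the MHC class II gene BOLA-DRA. In bulk RNA, a change in the number of cells of one type and a change in RNA per cell cannot be told apart. The mean of 9 hybridisation-control probe sets was 8.66 to 8.71 on 3 arrays (LH replicate 1 and control replicates 1 and 3) and 9.84 to 10.17 on the 13 others. Counts without these 3 arrays are given beside those over all arrays.

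BMP6 raised more of the cytokine genes than it lowered. Against control, 24 of 91 members rose, by 0.27 to 1.87, and 4 fell, by 0.30 to 0.87. Of all 24016 probe sets, 8.12% rose and 9.95% fell in that comparison. Of all 9155 named genes, each by its brightest probe set, 9.31% rose and 15.5% fell. In LH-stimulated cells, LH+BMP6 against LH, 29 members rose, by 0.35 to 2.01, and 3 fell, against 9.99% and 10.3% of all probe sets. Of the named genes 11.7% rose and 15.5% fell there. The 63 members not called with BMP6 lay between -0.52 and 1.08, and the 59 not called with LH+BMP6 between -0.40 and 0.97. A rise of at least 2-fold was seen for 10 members with BMP6 and 11 with LH+BMP6. Of the members that rose, 22 did so in both comparisons, and CCL14, CCL25 and CXCL14 fell in both. The comparisons share no array but use the same estimate of spread, so they are not independent of each other. The median difference over the members was 0.18 with BMP6 and 0.13 with LH+BMP6, and that over all probe sets was 0.01 and -0.02. Of the 42 members with a mean signal above the median of all probe sets, 20 rose with BMP6 (12.2% of all probe sets above that median did), and of the 49 below it 4 rose (4.02% of all probe sets below it did). Leaving out the 3 arrays with low hybridisation controls, 16 members rose and 3 fell with BMP6, and 22 rose and 3 fell with LH+BMP6. The calls lost without them were CCL2, CCL4, CCL14, CSF3, CXCL16, IL4R, IL17RC, TNFRSF6B and TNFRSF21 with BMP6 and CSF2, CXCL11, CXCL16, IL1R1, IL2RG, IL21R and TNFRSF21 with LH+BMP6. That fit had fewer control and LH arrays, so lower precision and dependence on the arrays left out cannot be told apart. With the low signal as a term of the fit 14 rose with BMP6, and without control replicate 2 it was 15. The share of all probe sets called was not counted in these other fits. A loss particular to the members therefore cannot be told apart from a loss over all probe sets.

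**Figure D1:**
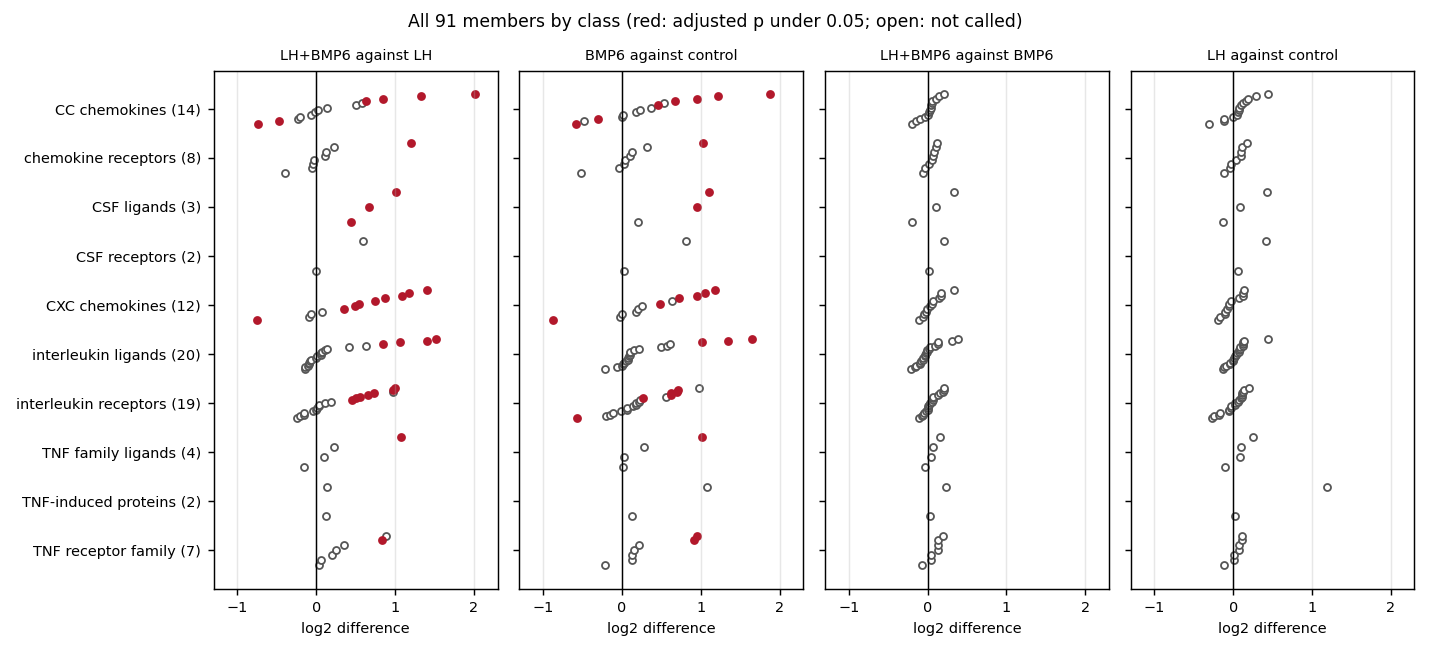
The log2 difference (horizontal axis) of each of the 91 members by class (rows, number of genes in parentheses) in 4 comparisons, with called members in red. Red points lie in the panels of LH+BMP6 against LH and BMP6 against control, and there are none in the panels for LH.

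Both interleukin 1 genes rose in both comparisons. IL1A, which encodes a cytokine that is active in the cell-bound form, stood at 7.29, 7.50, 7.66 and 7.59 on the BMP6 arrays, against 6.24, 6.45, 6.71 and 6.55 in control. It stood at 7.59, 7.73, 7.65 and 7.59 with LH+BMP6, against 6.47, 6.34, 6.78 and 6.71 with LH. In both comparisons every array with BMP6 lay above every array without it, and the SD within a group was 0.07 to 0.21. The difference was 1.02 ± 0.11 (adjusted p = 1.39e-05) with BMP6 (2.03-fold) and 1.07 ± 0.11 (adjusted p = 7.9e-06) with LH+BMP6, and IL1A had the smallest adjusted p of the members in both. IL1B, the secreted form that is cut from a precursor by caspase 1, stood at 6.67, 7.48, 7.47 and 7.48 with BMP6, against 5.47, 5.78, 6.04 and 6.39 in control, and at 7.25, 7.56, 7.43 and 7.37 with LH+BMP6, against 5.87, 5.69, 6.54 and 5.88 with LH. BMP6 replicate 1 lay below the other BMP6 arrays, but above all control arrays. IL1B rose 2.55-fold (1.35 ± 0.21, adjusted p = 0.000294) and 2.65-fold (1.41 ± 0.21, adjusted p = 0.000182). The other probe set of each gene was called higher as well, by 1.30 for IL1A and 1.33 for IL1B with BMP6.

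Among the receptors of this system, IL1RAP, the co-receptor that signalling by interleukin 1 requires, rose with BMP6 (0.70 ± 0.15, adjusted p = 0.00327) and with LH+BMP6 (0.65 ± 0.15, adjusted p = 0.00475). The call with LH+BMP6 was lost when the probe sets of the gene were averaged (0.22, adjusted p = 0.0952), as its 2 other probe sets differed by -0.08 and 0.08. IL1R1, the signalling receptor, was called with LH+BMP6 (0.50 ± 0.13, adjusted p = 0.00956), where its arrays stood at 7.72, 7.31, 7.27 and 7.30 against 6.60, 7.12, 7.05 and 6.81 with LH. With BMP6 it was not called (0.22 ± 0.13, adjusted p = 0.277, 95% interval -0.05 to 0.49). IL1R2, a decoy receptor that binds interleukin 1 without signalling, fell with BMP6, at 4.50, 4.30, 4.14 and 4.02 against 4.77, 5.01, 4.62 and 4.81 in control (-0.56 ± 0.11, adjusted p = 0.00179). With LH+BMP6 it was not called (-0.16 ± 0.11, adjusted p = 0.374), and the interaction was not called for it either (0.41, unadjusted p = 0.0193). The antagonist gene IL1RN had one high array, BMP6 replicate 3 at 6.78 against 5.37 to 5.79 on the other BMP6 arrays, and was not called (0.61 ± 0.24, adjusted p = 0.0851). It was called under 3 of 23 alternatives. IL18, of the same family, stood at 10.31 to 11.04 with BMP6 and 10.63 to 11.25 in control and was not called (-0.21 ± 0.16, adjusted p = 0.444). IL33, a nuclear alarmin of the family, was called with LH+BMP6 (0.84 ± 0.18, adjusted p = 0.00325), at 3.86, 4.95, 3.96 and 4.49 against 3.43, 3.28, 3.63 and 3.55 with LH. The 4 LH values and those of LH+BMP6 replicates 1 and 3 lay below the lower quartile of signal on the arrays. With BMP6 IL33 was not called (0.49 ± 0.18, adjusted p = 0.0751, or 0.60, adjusted p = 0.0387 without BMP6 replicate 1). Another probe set of IL33 was called with BMP6 (1.02, adjusted p = 0.0498) and with LH+BMP6 (1.03, adjusted p = 0.0449), and a further one in neither. When the probe sets of the gene were averaged, IL33 was called with BMP6. The IL1R1 call in LH-stimulated cells was lost without all arrays of replicate number 1 or 4 (lost under 3 of 23 alternatives, adjusted p = 0.0514 to 0.0947 there).

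IL6, the cytokine of the acute-phase response, rose 3.14-fold with BMP6 and 2.88-fold with LH+BMP6, with a wide spread between cultures. It stood at 8.94, 10.59, 9.52 and 9.55 with BMP6, against 7.15, 7.81, 8.59 and 8.44 in control (1.65 ± 0.39, adjusted p = 0.00693). With LH+BMP6 it stood at 9.49, 11.12, 9.97 and 9.28, against 9.01, 8.31, 8.33 and 8.12 with LH (1.52 ± 0.39, adjusted p = 0.0104). Replicate 2 was the highest array of both groups with BMP6, and no array with BMP6 overlapped its counterparts in either comparison. The call with LH+BMP6 was lost without all arrays of replicate number 3 (lost under 1 of 23 alternatives, adjusted p = 0.0736 there). The receptor gene IL6R stayed between 3.80 and 4.48 on all 16 arrays, near the lower quartile of signal on the arrays (4.31 to 4.43), and was not called (0.07 ± 0.14, adjusted p = 0.811). The gp130 gene IL6ST had no probe set under its symbol and is not analysed here. Of the 20 interleukin ligands 3 rose with BMP6 (15%) and 4 with LH+BMP6 (20%), where 8.12% and 9.99% of all probe sets rose. Those ligands were IL1A, IL1B and IL6, joined in LH-stimulated cells by IL33, by the probe set used for it. The ligands of T cells and helper cells (IL2, IL3, IL4, IL5, IL10, IL12A, IL12B, IL13, IL17A and IL21) and IL7, IL15, IL16 and IL34 were not called in any comparison. IL10, an anti-inflammatory cytokine, stood at 5.01 to 5.27 with BMP6 and 4.93 to 5.19 in control (95% interval -0.20 to 0.22).

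**Figure D2:**
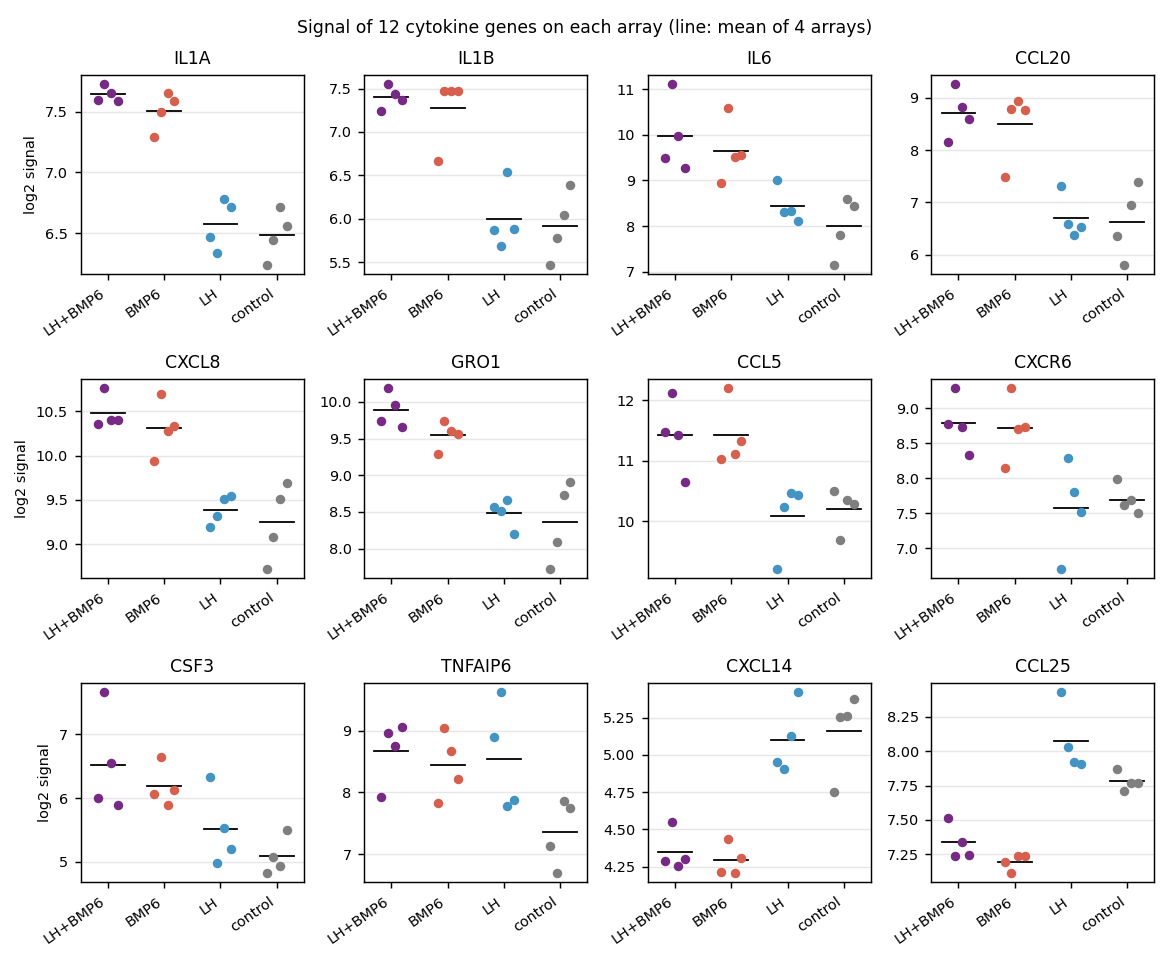
Log2 signal (vertical axis) of 12 members on each of the 16 arrays by group, with a line at the mean of 4 arrays and points from replicate 1 on the left to 4 on the right. IL1A, IL1B, IL6, CCL20, CXCL8, GRO1, CCL5 and CXCR6 are higher in both groups with BMP6, CXCL14 and CCL25 lower, and TNFAIP6 is spread in LH.

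The CXC chemokines that carry a glutamate-leucine-arginine motif attract neutrophils through CXCR1 and CXCR2, and 4 of the 5 on the array (GRO1, CXCL2, CXCL5 and CXCL8) rose in both comparisons. GRO1 stood at 9.29, 9.74, 9.60 and 9.56 with BMP6, against 7.72, 8.09, 8.73 and 8.91 in control (2.27-fold, 1.19 ± 0.20, adjusted p = 0.000569), and at 9.74, 10.19, 9.96 and 9.66 with LH+BMP6, against 8.56, 8.52, 8.66 and 8.20 with LH (2.65-fold, 1.41 ± 0.20, adjusted p = 0.000118). Its 3 other probe sets were called higher in both comparisons as well, by 1.37 to 1.61 with BMP6. CXCL8, interleukin 8, stood at 9.94, 10.70, 10.28 and 10.33 with BMP6, against 8.72, 9.08, 9.52 and 9.69 in control (1.06 ± 0.18, adjusted p = 0.000618), and rose by 1.09 ± 0.18 with LH+BMP6. CXCL2 rose by 0.95 ± 0.19 (adjusted p = 0.00216) with BMP6, where BMP6 replicate 1 (9.25) overlapped the highest control array (9.31), and by 1.17 ± 0.19 (adjusted p = 0.000375) with LH+BMP6 without overlap. CXCL5 stood at 11.80, 11.83, 11.90 and 11.93 with BMP6, against 10.76, 10.94, 11.48 and 11.38 in control, a rise of 0.72 ± 0.13 (adjusted p = 0.00114), and of 0.87 ± 0.13 with LH+BMP6. These 4 genes kept both calls under all alternatives tried. CXCL3 was a dim probe set at 3.61 to 4.01 with BMP6 and 3.40 to 3.55 in control and was called with LH+BMP6 (0.49 ± 0.10, adjusted p = 0.00218) but not with BMP6 (0.26 ± 0.10, adjusted p = 0.0951). GRO1, CXCL2 and CXCL3 are close paralogues, so cross-hybridisation between their probe sets cannot be told apart from a shared rise here. Of the receptors CXCR1 and CXCR2, CXCR2 was not among the members. CXCR1 stood at 3.65 to 3.82 with BMP6 and 3.55 to 3.91 in control and was not called (-0.03 ± 0.09, adjusted p = 0.867).

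The other CXC chemokines went both ways. CXCL10 and CXCL11, interferon-induced ligands of CXCR3, were called with LH+BMP6 (CXCL10 0.35 ± 0.08, adjusted p = 0.00586, CXCL11 0.75 ± 0.23, adjusted p = 0.0307) and not with BMP6 (CXCL10 0.20 ± 0.08, adjusted p = 0.0998, CXCL11 0.63 ± 0.23, adjusted p = 0.0705). CXCL10 stood at 13.19 to 13.37 with BMP6 and 12.93 to 13.14 in control. CXCL16, a transmembrane chemokine, rose by 0.49 ± 0.14 (adjusted p = 0.0228) with BMP6 and 0.54 ± 0.14 (adjusted p = 0.0111) with LH+BMP6. CXCL14 fell. It stood at 4.22, 4.44, 4.21 and 4.31 with BMP6, against 4.75, 5.25, 5.26 and 5.37 in control, and at 4.29, 4.55, 4.25 and 4.30 with LH+BMP6, against 4.95, 4.91, 5.12 and 5.42 with LH. The groups did not overlap in either comparison, and the falls (-0.87 ± 0.13, adjusted p = 0.000231 and -0.75 ± 0.13, adjusted p = 0.000653) brought it to the lower quartile of signal on the arrays. CXCL12, the stromal chemokine that retains leukocytes and progenitors, was not called (-0.02 ± 0.24, adjusted p = 0.974), and without all arrays of replicate number 2 it was called lower with BMP6 (-0.46, adjusted p = 0.0339). Its receptor gene CXCR4 was not called (-0.52 ± 0.23, adjusted p = 0.139). CXCL13 and CXCL17 were not called in any comparison. The CXCL11 call was lost without LH+BMP6 replicate 1, 2 or 3 or LH replicate 1 or 4 and without all arrays of replicate number 1 or 3 (lost under 10 of 23 alternatives, adjusted p = 0.0505 to 0.251 there). The CXCL10 call was lost without all arrays of replicate number 1 or 3 (lost under 2 of 23 alternatives, adjusted p = 0.0549 to 0.0717 there). With BMP6 the CXCL16 call was lost without BMP6 replicate 2 or control replicate 1 or 2 and without all arrays of replicate number 1 or 2 (lost under 7 of 23 alternatives, adjusted p = 0.0588 to 0.0917 there), and with LH+BMP6 without all arrays of replicate number 1 or 3 (lost under 3 of 23 alternatives, adjusted p = 0.0589 to 0.11 there).

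CCL20, which attracts dendritic cells and lymphocytes through CCR6, had the largest difference of the members in both comparisons. It stood at 7.49, 8.78, 8.95 and 8.77 with BMP6, against 6.35, 5.81, 6.95 and 7.38 in control, 3.67-fold higher (1.87 ± 0.35, adjusted p = 0.0011). With LH+BMP6 it stood at 8.15, 9.28, 8.83 and 8.59, against 7.32, 6.59, 6.38 and 6.52 with LH, 4.03-fold higher (2.01 ± 0.35, adjusted p = 0.000532). BMP6 replicate 1 was the low array of its group, and was still above the highest control array. Both calls held under all alternatives tried. CCL3 and CCL5, which attract T cells and monocytes, rose as well. CCL3 rose by 0.96 ± 0.18 (adjusted p = 0.00134) with BMP6 and 0.85 ± 0.18 (adjusted p = 0.00289) with LH+BMP6, and another probe set of the gene was called in both comparisons while a dim one was called in neither. CCL5 stood at 11.03, 12.21, 11.11 and 11.33 with BMP6, against 10.50, 9.68, 10.35 and 10.29 in control (1.22 ± 0.32, adjusted p = 0.0125), and rose by 1.34 ± 0.32 (adjusted p = 0.00613) with LH+BMP6. CCL4, a close paralogue of CCL3, was called with BMP6 (0.67 ± 0.22, adjusted p = 0.0388) and not with LH+BMP6 (0.58 ± 0.22, adjusted p = 0.0687), and was higher in 3 of 4 replicate numbers with BMP6. CCL2, the main monocyte attractant, rose by 0.46 ± 0.13 (adjusted p = 0.0179) and 0.63 ± 0.13 (adjusted p = 0.00223). CCL8 had values of 0.53 ± 0.20 (adjusted p = 0.0737) and 0.51 ± 0.20 (adjusted p = 0.0833) and was not called.

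Of the CC chemokines, 2 fell. CCL25, known for guiding T cells to the gut and thymus through CCR9, stood at 7.19, 7.11, 7.24 and 7.24 with BMP6, against 7.87, 7.71, 7.77 and 7.77 in control (-0.58 ± 0.10, adjusted p = 0.000751), and at 7.52, 7.24, 7.34 and 7.24 with LH+BMP6, against 8.43, 8.03, 7.92 and 7.90 with LH (-0.74 ± 0.10, adjusted p = 9.34e-05). The groups did not overlap and both calls held under all alternatives tried, although 1 of its 2 other probe sets was not called with BMP6 (-0.24). CCL14 fell by less, and its probe set was dim (-0.30 ± 0.09, adjusted p = 0.033 with BMP6 and -0.47 ± 0.09, adjusted p = 0.00168 with LH+BMP6). CCL11, CCL19, CCL21, CCL22, CCL26 and CCL28 were not called in any comparison. The CCL2 call with BMP6 was lost without BMP6 replicate 2 or control replicate 1 or 2 and without all arrays of replicate number 2 (lost under 6 of 23 alternatives, adjusted p = 0.0537 to 0.153 there). That of CCL4 was lost without BMP6 replicate 2, 3 or 4 or control replicate 2, 3 or 4 and without all arrays of replicate number 2, 3 or 4 (lost under 12 of 23 alternatives, adjusted p = 0.0507 to 0.144 there). That of CCL14 with BMP6 was lost without BMP6 replicate 1 or 2 or control replicate 3 or 4 and without all arrays of replicate number 1, 2, 3 or 4 (lost under 11 of 22 alternatives, adjusted p = 0.0519 to 0.129 there). The CCL5 calls were lost without all arrays of replicate number 2 (lost under 2 of 23 alternatives, adjusted p = 0.0667 to 0.0857 there) with BMP6 and without all arrays of replicate number 1 (lost under 1 of 23 alternatives, adjusted p = 0.0539 there) with LH+BMP6.

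**Figure D3:**
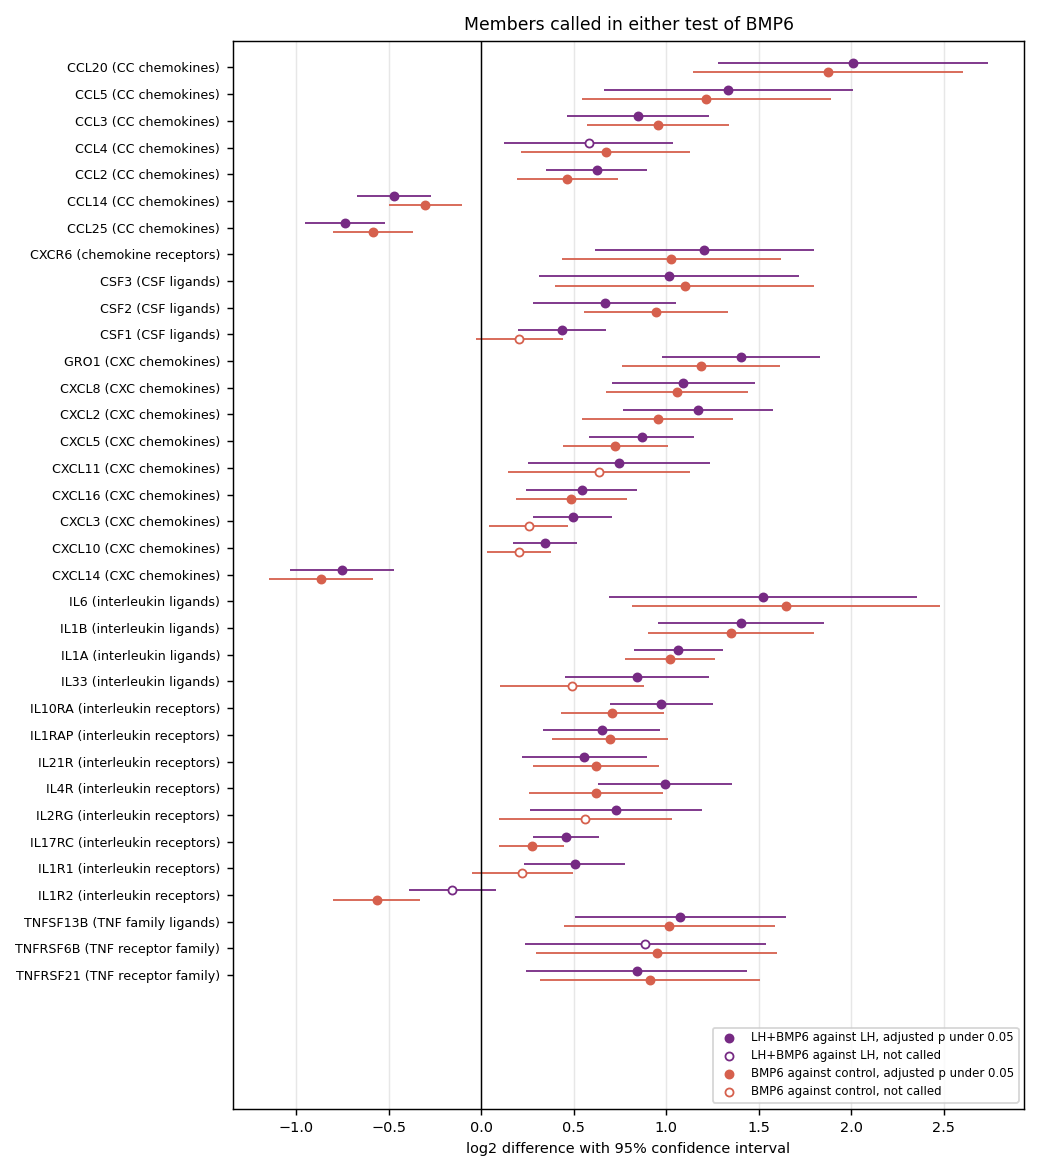
Log2 difference with its 95% confidence interval (horizontal axis) for the 35 members called in LH+BMP6 against LH or BMP6 against control (rows, class in parentheses), with open circles where a gene was not called in that comparison. CCL20 has the largest value in both, and CCL14, CCL25, CXCL14 and IL1R2 lie below 0.

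Of the 8 chemokine receptors 1 was called (12.5%), where 8.12% of all probe sets rose with BMP6 and 9.99% with LH+BMP6. CXCR6, the receptor of CXCL16 and a marker of tissue-resident T cells, stood at 8.14, 9.29, 8.71 and 8.74 with BMP6, against 7.98, 7.61, 7.68 and 7.50 in control (1.03 ± 0.28, adjusted p = 0.0162), and at 8.77, 9.30, 8.74 and 8.33 with LH+BMP6, against 6.70, 8.29, 7.80 and 7.52 with LH (1.21 ± 0.28, adjusted p = 0.0052). The lowest LH value, 6.70 in replicate 1, came from the array with the lowest leukocyte marker level. Among the 19 interleukin receptor chains 5 rose and 1 fell with BMP6, and 7 rose with LH+BMP6. IL10RA, the ligand-binding chain of the interleukin 10 receptor, rose by 0.71 ± 0.13 (adjusted p = 0.00115) and 0.97 ± 0.13 (adjusted p = 7.05e-05). IL4R, which serves interleukins 4 and 13, stood at 8.20, 8.88, 8.27 and 8.27 with BMP6, against 7.75, 7.53, 7.95 and 7.91 in control (0.62 ± 0.17, adjusted p = 0.0177), and rose by 0.99 ± 0.17 (adjusted p = 0.000556) with LH+BMP6. The other probe set of IL4R was called with LH+BMP6 (0.56, adjusted p = 0.0132) but not with BMP6 (0.37, adjusted p = 0.103). IL21R, a receptor of lymphocytes, rose by 0.62 ± 0.16 (adjusted p = 0.0115) and 0.56 ± 0.16 (adjusted p = 0.0197). IL17RC, a subunit of the interleukin 17 receptor, rose by the smallest called amount with BMP6 (0.27 ± 0.08, adjusted p = 0.0318) and by 0.46 ± 0.08 (adjusted p = 0.00089) with LH+BMP6. IL2RG, the common gamma chain of lymphocyte cytokine receptors, was called with LH+BMP6 (0.73 ± 0.22, adjusted p = 0.0262) and not with BMP6 (0.56 ± 0.22, adjusted p = 0.0908). IL2RA, a chain of activated T cells, was not called, with values of 0.97 ± 0.34 (adjusted p = 0.0541) and 0.97 ± 0.34 (adjusted p = 0.051). CCR3, CCR4, CCR9, CXCR3, CXCR5, IL10RB, IL12RB2, IL13RA1, IL17RB, IL18R1, IL20RA, IL20RB, IL22RA1 and IL23R were not called in any comparison. The CXCR6 call with BMP6 was lost without BMP6 replicate 2 and without all arrays of replicate number 3 or 4 (lost under 4 of 23 alternatives, adjusted p = 0.0569 to 0.106 there), and that of IL4R without BMP6 replicate 2 or control replicate 2 and without all arrays of replicate number 1 or 3 (lost under 5 of 23 alternatives, adjusted p = 0.0528 to 0.0694 there). The IL21R calls were lost without all arrays of replicate number 3 or 4 (lost under 3 of 23 alternatives, adjusted p = 0.0561 to 0.0906 there) with BMP6 and without LH+BMP6 replicate 2 or LH replicate 1 and without all arrays of replicate number 4 (lost under 5 of 23 alternatives, adjusted p = 0.0675 to 0.096 there) with LH+BMP6. The IL2RG call was lost without LH+BMP6 replicate 2 or 3 or LH replicate 1 and without all arrays of replicate number 3 or 4 (lost under 8 of 23 alternatives, adjusted p = 0.0543 to 0.117 there), and that of IL17RC with BMP6 without BMP6 replicate 1 or 2 or control replicate 1, 2 or 4 and without all arrays of replicate number 1, 2, 3 or 4 (lost under 12 of 23 alternatives, adjusted p = 0.0592 to 0.176 there).

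The colony-stimulating factors direct the output and survival of myeloid cells. CSF2, the granulocyte-macrophage factor, stood at 5.70, 6.41, 6.08 and 6.03 with BMP6, against 5.02, 4.78, 5.25 and 5.38 in control (0.95 ± 0.18, adjusted p = 0.00161), and rose by 0.67 ± 0.18 (adjusted p = 0.0156) with LH+BMP6. CSF3, the granulocyte factor, stood at 6.07, 6.64, 5.89 and 6.13 with BMP6, against 4.82, 5.08, 4.93 and 5.50 in control (1.10 ± 0.33, adjusted p = 0.0282), and at 5.99, 7.66, 6.55 and 5.89 with LH+BMP6, against 6.33, 4.98, 5.53 and 5.19 with LH (1.02 ± 0.33, adjusted p = 0.0384). In the second pair LH replicate 1 (6.33) overlapped the LH+BMP6 arrays. CSF1, the macrophage factor, was called with LH+BMP6 (0.44 ± 0.11, adjusted p = 0.00973) and not with BMP6 (0.21 ± 0.11, adjusted p = 0.238), and its other probe set was not called in either. The receptor genes CSF1R (0.03 ± 0.13, adjusted p = 0.933) and CSF2RB (0.81 ± 0.37, adjusted p = 0.145) were not called. The CSF3 calls were lost without BMP6 replicate 2 or 4 or control replicate 1, 2 or 3 and without all arrays of replicate number 1, 3 or 4 (lost under 10 of 23 alternatives, adjusted p = 0.05 to 0.161 there) with BMP6 and without LH+BMP6 replicate 2 or 3 or LH replicate 2, 3 or 4 and without all arrays of replicate number 2, 3 or 4 (lost under 10 of 23 alternatives, adjusted p = 0.0584 to 0.264 there) with LH+BMP6. The CSF2 call in LH-stimulated cells was lost without LH+BMP6 replicate 2 or 3 or LH replicate 1 and without all arrays of replicate number 3 (lost under 5 of 23 alternatives, adjusted p = 0.0505 to 0.155 there), and that of CSF1 without all arrays of replicate number 1 or 4 (lost under 2 of 23 alternatives, adjusted p = 0.0581 to 0.0914 there).

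TNF itself was not called in any comparison. It stood at 5.40, 5.39, 5.47 and 5.38 with BMP6, against 5.45, 5.25, 5.47 and 5.35 in control, a difference of 0.03 ± 0.08 with a 95% interval of -0.15 to 0.21. TNFSF13B, the B cell survival factor BAFF, rose 2.02-fold with BMP6, at 7.09, 8.48, 7.33 and 7.46 against 6.67, 6.12, 6.83 and 6.67 in control (1.02 ± 0.27, adjusted p = 0.0138), and 2.11-fold with LH+BMP6 (1.08 ± 0.27, adjusted p = 0.00856). TNFRSF21, death receptor 6, split by culture. It stood at 5.90, 5.59, 6.71 and 6.69 with BMP6, against 5.00, 5.23, 5.49 and 5.51 in control (0.91 ± 0.28, adjusted p = 0.0318). With LH+BMP6 it stood at 5.47, 5.80, 6.70 and 6.65, against 5.14, 4.95, 5.65 and 5.52 with LH (0.84 ± 0.28, adjusted p = 0.0436). Replicates 3 and 4 were the high arrays of all 4 groups, with BMP6 and without it. TNFRSF6B, in humans a soluble decoy receptor for FAS ligand, was called with BMP6 (0.95 ± 0.31, adjusted p = 0.0407) and narrowly not with LH+BMP6 (0.89 ± 0.31, adjusted p = 0.0509). The main TNF receptor gene TNFRSF1A was not called (-0.22 ± 0.08, adjusted p = 0.0776, and 0.03 ± 0.08 with LH+BMP6). TNFRSF12A was not called with BMP6 (0.22 ± 0.12, adjusted p = 0.247) and narrowly not with LH+BMP6 (0.35, adjusted p = 0.0508). Like it, TNFRSF1B, TNFRSF18, TNFRSF25, TNFSF8, TNFSF13 and TNFAIP1 were not called in any comparison. Another, dimmer probe set of TNFRSF25 was called higher with LH+BMP6 (0.53, adjusted p = 0.0282) but not with BMP6 (0.33, adjusted p = 0.187). TNFAIP6, whose product ties hyaluronan into the matrix of the expanding cumulus, stood at 7.92, 8.96, 8.75 and 9.07 with LH+BMP6, 7.83, 9.05, 8.66 and 8.22 with BMP6, 8.90, 9.63, 7.78 and 7.88 with LH and 7.14, 6.69, 7.85 and 7.75 in control. All 4 replicate numbers had higher values with BMP6 than in control, but TNFAIP6 was not called (1.08 ± 0.38, adjusted p = 0.0589), while its other probe set was (1.08, adjusted p = 0.0363). TNFAIP3, TNFRSF11B and TNFSF10 had no probe set under their symbols and are not analysed here. The TNFRSF21 calls were lost without BMP6 replicate 3 or 4 or control replicate 1 or 2 and without all arrays of replicate number 1, 3 or 4 (lost under 9 of 23 alternatives, adjusted p = 0.0597 to 0.171 there) with BMP6 and without LH+BMP6 replicate 3 or 4 or LH replicate 1, 2 or 4 and without all arrays of replicate number 2, 3 or 4 (lost under 12 of 23 alternatives, adjusted p = 0.053 to 0.157 there) with LH+BMP6. The TNFRSF6B call was lost without BMP6 replicate 2, 3 or 4 or control replicate 1 or 2 and without all arrays of replicate number 2, 3 or 4 (lost under 12 of 23 alternatives, adjusted p = 0.0631 to 0.158 there), and those of TNFSF13B without control replicate 2 (lost under 1 of 23 alternatives, adjusted p = 0.0539 there) with BMP6 and without all arrays of replicate number 3 (lost under 1 of 23 alternatives, adjusted p = 0.0722 there) with LH+BMP6.

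The leukocyte marker list rose in its mean level along with the cytokine genes, though not every marker did. Beside the counts of these lists, 8.12% of all probe sets rose and 9.95% fell with BMP6, and 9.99% and 10.3% with LH+BMP6. Of 26 measured leukocyte markers, 5 rose and 0 fell with BMP6 (BOLA-DYA 2.38 ± 0.48, CD14 1.13 ± 0.24, LCP1 0.81 ± 0.26, FCGR1A 0.77 ± 0.13 and BOLA-DRA 0.65 ± 0.21), with a median of 0.53. With LH+BMP6, 14 rose and 0 fell, with a median of 0.76, and BOLA-DYA (3.02 ± 0.48, adjusted p = 0.000268), the T cell gene CD3G (1.06 ± 0.27, adjusted p = 0.00884), CD14 (1.04 ± 0.24, adjusted p = 0.00462) and PTPRC (0.95 ± 0.26, adjusted p = 0.0161) were those with the largest rise. The mean level of the list was 7.15 to 7.42 with LH+BMP6, 6.90 to 7.39 with BMP6, 6.13 to 6.80 with LH and 6.63 to 6.72 in control. Of the 26 markers, 23 had a positive difference with BMP6, but 21 were not called, PTPRC and CD3G among them. Some of moderate signal stayed near control, as CYBB (7.24 with BMP6, 7.32 in control), AIF1 (6.46 and 6.53) and TYROBP (5.94 and 5.83). The B cell genes MS4A1 (3.83 over the 16 arrays) and CD79A (4.25) and the myeloid integrin ITGAM (3.14) lay below the lower quartile of the arrays. CCL5, CXCR6, IL2RG, IL21R, IL10RA and TNFSF13B are known as genes of leukocytes, and the part of these markers in the members' rises was not tested. Endothelial markers had 1 of 14 higher (SELE 0.56 ± 0.16) and 1 lower (CLDN5 -0.88 ± 0.27) with BMP6, with a median of -0.13, and fibroblast and pericyte markers 4 of 13 higher and 0 lower, with a median of 0.23. Granulosa markers had 2 of 8 higher with BMP6 (CDH2 1.67 ± 0.27 and SERPINE2 0.92 ± 0.12), with a median of 0.08. With LH+BMP6, the endothelial list had 0 higher and 1 lower (CLDN5 -1.03 ± 0.27), with a median of -0.21. The fibroblast and pericyte list had 4 higher and 2 lower (RGS5 -0.84 ± 0.29 and MCAM -0.53 ± 0.18), with a median of 0.26, and the granulosa list the same 2 genes higher, with a median of -0.08. The theca markers went the other way, with 7 of 8 lower with BMP6 and 8 of 8 lower with LH+BMP6, at a mean level of 7.10 to 7.85 with LH+BMP6, 7.13 to 7.39 with BMP6, 10.23 to 11.32 with LH and 9.81 to 10.43 in control.

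**Figure D4:**
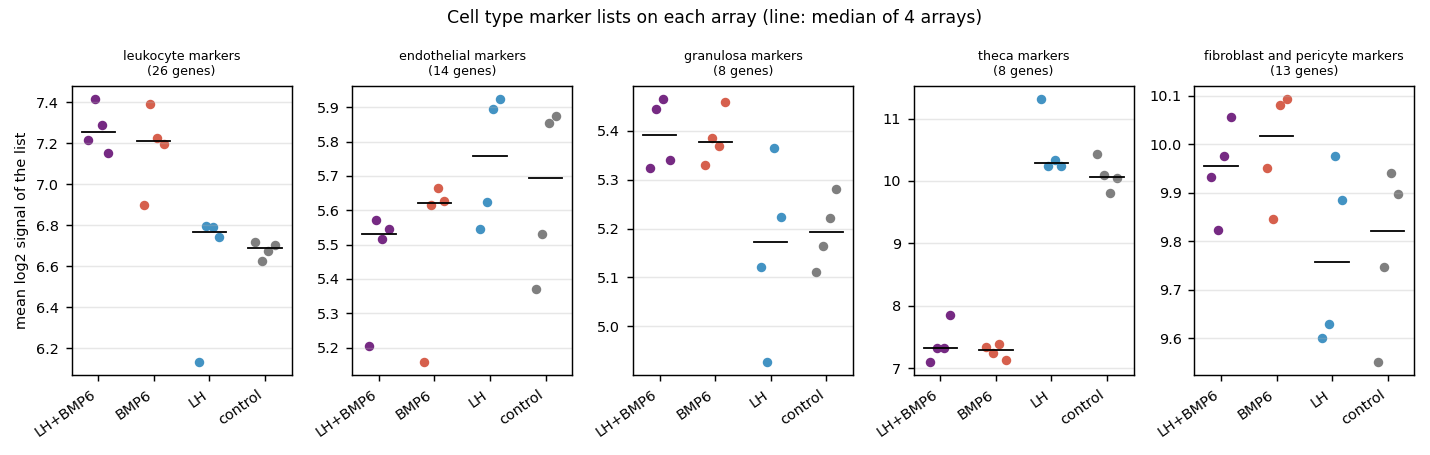
Mean log2 signal (vertical axis) of 5 cell type marker lists on each of the 16 arrays by group, with a line at the median of 4 arrays and points from replicate 1 on the left to 4 on the right. The leukocyte list is higher in both groups with BMP6, with LH replicate 1 lowest at 6.13, and the theca list is lower in both.

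The level reached with BMP6 differed between cultures in a way that many members shared. The counts here rank the levels on the arrays with BMP6, not the differences from the arrays without it. The same ranking was not made over all probe sets, so the pattern is not shown to be particular to the members. Of the 24 members that rose with BMP6, 19 had their lowest BMP6 value in replicate 1 and 18 their highest in replicate 2. Of the 29 that rose with LH+BMP6, 25 had their highest value in replicate 2, and 16 had their lowest in replicate 4 and 12 in replicate 1. The leukocyte list had its lowest BMP6 level in replicate 1 (6.90) and its highest in replicate 2 (7.39), and its highest LH+BMP6 level in replicate 2 (7.42) and lowest in replicate 4 (7.15). IL6 was among those that followed the pattern, with 10.59 in BMP6 replicate 2 and 8.94 in replicate 1. TNFRSF21 departed from it, with 5.59 in BMP6 replicate 2 and 6.71 in replicate 3, and its replicates 3 and 4 were the high arrays without BMP6 too. Of the 24 members called higher with BMP6, 21 had all BMP6 arrays above all control arrays, and of the 29 with LH+BMP6, 23 had all of them above all LH arrays. Called or not, 27 and 26 members were so separated, while 10.1% and 9.78% of all probe sets were. For 6 members all BMP6 arrays lay below all control arrays, and for 3 all LH+BMP6 arrays below all LH arrays, while 12.7% and 11.2% of all probe sets did.

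**Figure D5:**
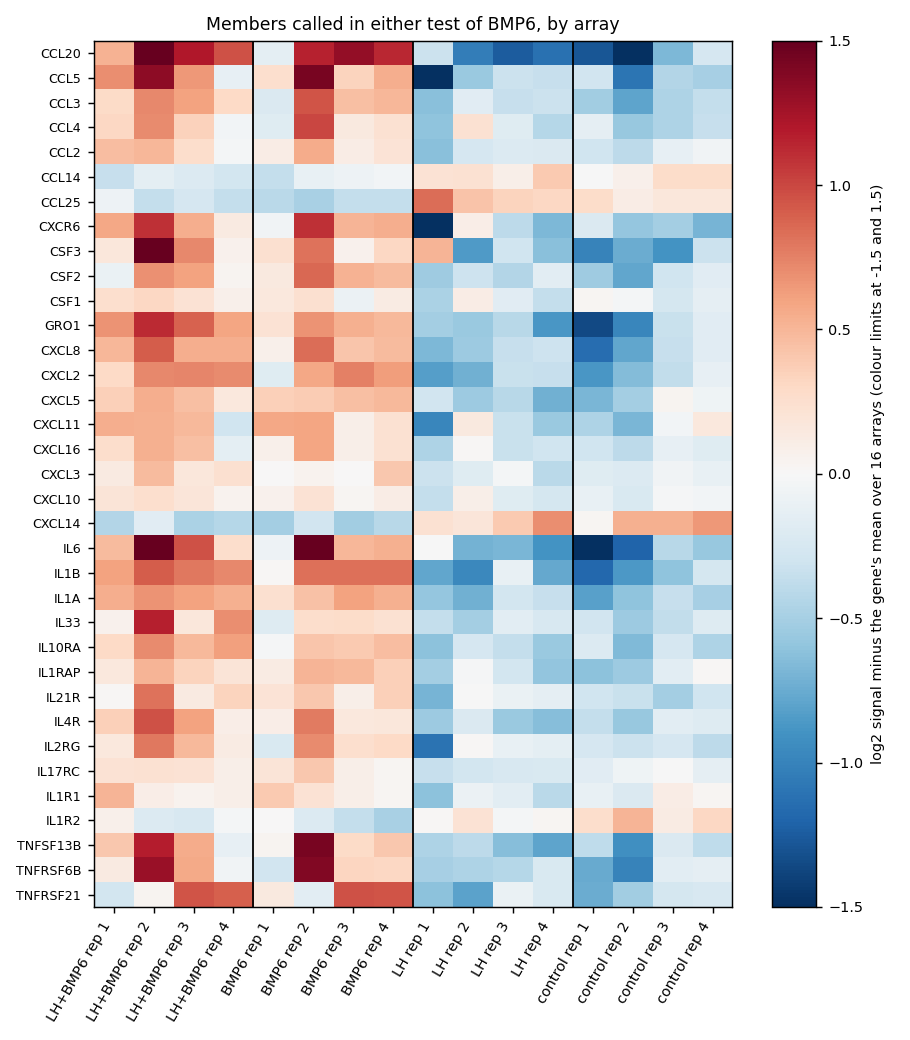
Log2 signal of the 35 members called in LH+BMP6 against LH or BMP6 against control (rows) on each array (columns), less the mean of the gene over 16 arrays, with colours limited at -1.5 and 1.5. Replicate 2 is the deepest red column of both groups with BMP6 for most members, and TNFRSF21 in the bottom row is red in replicates 3 and 4.

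LH did not move these genes detectably at this number of arrays. Against control, limma called 0 of 91 members, and 6 had an unadjusted p under 0.05, with TNFAIP6 (1.19 ± 0.38, adjusted p = 0.74), CCL26 (0.45 ± 0.15) and CCL25 (0.29 ± 0.10) higher and IL1R1 (-0.27 ± 0.13), IL1R2 (-0.25 ± 0.11) and IL17RC (-0.18 ± 0.08) lower. The share of members past that unadjusted level was 6.59%, and that of all probe sets 5.38%. Of all probe sets 0.0125% were called, all higher. The 95% interval lay within 1 log2 unit of 0 for 87 of the 91 members. TNFAIP6 had the largest value, and its LH arrays ranged from 7.78 to 9.63, against 6.69 to 7.85 in control. IL6 had a value of 0.44 ± 0.39 and CSF3 of 0.43 ± 0.33, in both of which LH replicate 1 was the highest LH array. Of LH added to BMP6, LH+BMP6 against BMP6, 0 members were called by limma and 1, IL4 (-0.21 ± 0.10), had an unadjusted p under 0.05 (1.10% of members, and 1.96% of all probe sets), where 0 of 24016 probe sets were called. Values ranged from -0.21 for IL4 to 0.39 for IL33.

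The response to BMP6 was not shown to depend on LH. For the interaction, the difference between LH+BMP6 against LH and BMP6 against control, limma called 0 of 91 members and 0 of all probe sets, and 3 members (IL1R2 0.41 ± 0.16, TNFRSF1A 0.25 ± 0.12 and CCL26 -0.59 ± 0.21) had an unadjusted p under 0.05. That was 3.30% of members, and 3.22% of all probe sets. The 95% interval of the interaction lay within 1 log2 unit of 0 for 82 members, and the median SE was 0.19. IL1A had an interaction of 0.05 ± 0.16 with an interval of -0.30 to 0.39, and CCL20 of 0.14 ± 0.49 with an interval of -0.90 to 1.17. TNFAIP6 had the value farthest from 0 (-0.95 ± 0.54, interval -2.09 to 0.18), as it differed from control by 1.19 with LH and 1.08 with BMP6 but stood only 0.13 above LH with both. Some members not called over all arrays were called when 1 array was left out. With BMP6, TNFAIP6 was called without BMP6 replicate 1 (1.29, adjusted p = 0.0374) or control replicate 3 (1.25, adjusted p = 0.0475), IL1RN without BMP6 replicate 1 (0.77, adjusted p = 0.039) or 2 (0.76, adjusted p = 0.0438), IL2RG without BMP6 replicate 1 (0.72, adjusted p = 0.0333) and CXCL11 without control replicate 4 (0.77, adjusted p = 0.0407). With LH+BMP6, CCL4 was called without LH+BMP6 replicate 4 (0.70, adjusted p = 0.0401) or LH replicate 2 (0.74, adjusted p = 0.0236), and TNFRSF6B without LH+BMP6 replicate 1 (1.00, adjusted p = 0.0487) or 4 (1.07, adjusted p = 0.0285). The 7 members that rose with LH+BMP6 but were not called with BMP6 (CSF1, CXCL3, CXCL10, CXCL11, IL1R1, IL2RG and IL33), like CCL4, TNFRSF6B and IL1R2 for BMP6, are therefore not shown to differ between the 2 conditions.

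Genes that act downstream of these receptors and beside them are given from lists chosen by function. Of all probe sets, 8.12% rose and 9.95% fell with BMP6, and 9.99% and 10.3% with LH+BMP6. Of 32 measured genes of NF-kB and toll-like receptor signalling 7 rose and 2 fell with BMP6, with a median of 0.11, and 12 rose and 3 fell with LH+BMP6, with a median of 0.18. CD14, the lipopolysaccharide co-receptor that is also on the leukocyte list (1.13 ± 0.24, adjusted p = 0.00286), the adaptor TRAF1 (0.71 ± 0.23, adjusted p = 0.0394) and NFKBIZ, an inducible NF-kB cofactor (0.52 ± 0.11, adjusted p = 0.00305), rose with BMP6, and TLR6 fell (-1.12 ± 0.14, adjusted p = 3.42e-05). The same 4 genes had the largest called differences with LH+BMP6 (TLR6 -1.11, CD14 1.04, NFKBIZ 0.84 and TRAF1 0.81). Of 14 JAK-STAT genes 4 rose and 1 fell with BMP6 (median 0.10), and 4 rose and 0 fell with LH+BMP6 (median 0.18). SOCS2, an inhibitor induced by cytokine receptors, rose most (1.43 ± 0.33, adjusted p = 0.00584), followed by its relative CISH (0.56 ± 0.19, adjusted p = 0.0487) and STAT4 (0.46 ± 0.09, adjusted p = 0.00145), while SOCS5 fell (-0.33 ± 0.08, adjusted p = 0.00628).

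Among 30 cytokine and receptor genes outside the symbol rule 9 rose and 2 fell with BMP6 (median 0.17), and 10 rose and 1 fell with LH+BMP6 (median 0.31). The neurotrophin receptor NGFR (1.42 ± 0.27, adjusted p = 0.00116), the CXCL12 scavenger ACKR3 (1.23 ± 0.15, adjusted p = 3.54e-05), the interferon receptor chain IFNAR1 (0.70 ± 0.13, adjusted p = 0.00143) and the chemokine XCL1 (0.69 ± 0.20, adjusted p = 0.0246) had the largest called differences with BMP6. With LH+BMP6, NGFR (1.43), ACKR3 (1.17) and the interferon gamma receptor chain IFNGR2 (0.82 ± 0.07, adjusted p = 5.5e-07) rose and the stem cell factor receptor KIT fell (-0.84 ± 0.18, adjusted p = 0.00333). Of 33 inflammatory effector genes 20 rose and 0 fell with BMP6 (median 0.56), and 22 rose and 2 fell with LH+BMP6 (median 0.67). NOS2, the inducible nitric oxide synthase (2.79 ± 0.41, adjusted p = 0.000155), PTGS2, the inducible prostaglandin synthase (2.12 ± 0.41, adjusted p = 0.0015), the collagenase MMP1 (2.02 ± 0.23, adjusted p = 1.49e-05) and SELP, P-selectin (1.86 ± 0.23, adjusted p = 2.9e-05), had the largest rises with BMP6. The same 4 genes did with LH+BMP6, by 2.59, 2.09, 1.73 and 2.01. In the comparisons of LH, limma called 0 genes of these 4 lists, and 4 had an unadjusted p under 0.05 against control and 1 in LH+BMP6 against BMP6.

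Some members lie next to each other in the genome, which the symbol rule did not use. In the RefSeq annotation of the ARS-UCD2.0 assembly, 34 of 90 placed members lie in 14 runs with at most 3 other protein-coding genes between neighbours. Of all 91 members 26.4% rose with BMP6 and 31.9% with LH+BMP6, and of all probe sets 8.12% and 9.99%. In the run of CXCL8, CXCL5, CXCL3 and GRO1, 3 of 4 rose with BMP6 and 4 of 4 with LH+BMP6. CXCL10 and CXCL11 form a run in which 2 of 2 rose with LH+BMP6, and IL1A with IL1B, and IL4R with IL21R, form runs in which 2 of 2 rose in both comparisons. Other runs were mixed. In those of CCL8, CCL11 and CCL2 and of CCR3, CXCR6 and CCR9, 1 of 3 rose in both comparisons, and in that of CSF2 and IL3 1 of 2. Runs of type 2 cytokine genes (IL4, IL13 and IL5), of IL21 and IL2, and of CCL19 and CCL21 had 0 called members. Whether neighbours rose together more often than other members was not tested. CCL14 fell while its neighbour CCL5 rose, and IL1R2 fell with BMP6 beside IL1R1, which was not called. Of the 91 members 22 had several probe sets, and 0 of these were called in opposite directions in any comparison.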

How the data were processed

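RNA of 16 theca cell cultures was hybridised to Affymetrix bovine arrays, 1 array a culture, in 4 groups of 4. The authors deposited log2 signals per probe set, made with RMA in Affymetrix Expression Console per the submitters' processing notes, with versions not given in the sources used here. RMA corrects background, sets arrays to 1 distribution and shrinks differences of dim probe sets. Signals carry no read depth, and the number of arrays limits the precision. The deposited log2 values were used without further scaling. Of 24128 probe sets 112 Affymetrix controls were left out, and 24016 were fitted with limma 3.58.1 in R 4.3.3 (lmFit with a coefficient per group, eBayes with an intensity trend). Each of 5 comparisons was adjusted by Benjamini-Hochberg over all 24016 probe sets and called at an adjusted p under 0.05. Of the tested probe sets 13292 had 1 gene symbol, 86 several and 10638 none in the platform annotation, which can be old, and 90 members were matched to RefSeq identifiers. The fit was tested on simulated data for BMP6 against control over 24016 probe sets, where 55.2% of changes of 0.5 and 100% of changes of 1 on the log2 scale were recovered, with 15 false calls. The changes were put on probe sets drawn at random from all. The median SE was 0.10 over all probe sets and 0.13 over the members. The shares recovered therefore do not hold for members of wider spread, and a member with a difference of 1.08 was not called with BMP6. The members and lists were chosen with earlier results of these data known. Named were all called members and a fixed set of cytokine genes, with other members added to account for the whole group, and up to 4 genes of each other list with the largest called change per comparison. The alternatives changed the eBayes prior, the normalization, a filter on dim probe sets, the arrays in the fit, the probe set of a gene and the replicate block, or left out arrays.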

Additional observations from a re-analysis of the deposited data

Results flagged for a closer look

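For 45 named members the highest and lowest array of each group was compared with the other 3, and 15 of 180 groups had a gap to the nearest array that, as a share of the range of the group, exceeded Dixon's critical value for 4 samples, where chance gives about 1 in 20. The array was below the others for 10 of these. CCL2 stood at 10.99 in LH replicate 1, below 11.36 to 11.42 on the other 3 arrays (gap over range 0.866). CCL20 stood at 7.49 in BMP6 replicate 1, below 8.77 to 8.95 on the other 3 arrays (gap over range 0.875). CXCL11 stood at 10.88 in LH+BMP6 replicate 4, below 11.67 to 11.73 on the other 3 arrays (gap over range 0.928). CXCL2 stood at 9.73 in LH+BMP6 replicate 1, below 10.13 to 10.16 on the other 3 arrays (gap over range 0.937). IL10RA stood at 5.98 in BMP6 replicate 1, below 6.39 to 6.46 on the other 3 arrays (gap over range 0.846). IL17RC stood at 6.93 in LH+BMP6 replicate 4, below 7.06 to 7.08 on the other 3 arrays (gap over range 0.856). IL1B stood at 6.67 in BMP6 replicate 1, below 7.47 to 7.48 on the other 3 arrays (gap over range 0.991). IL21R stood at 6.40 in control replicate 3, below 6.58 to 6.61 on the other 3 arrays (gap over range 0.830). IL2RG stood at 6.85 in LH replicate 1, below 7.82 to 7.98 on the other 3 arrays (gap over range 0.859). IL33 stood at 3.59 in BMP6 replicate 1, below 4.01 to 4.06 on the other 3 arrays (gap over range 0.890).

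The array was above the others for 5. CXCL14 stood at 4.55 in LH+BMP6 replicate 2, above 4.25 to 4.30 on the other 3 arrays (gap over range 0.840). CXCL3 stood at 4.01 in BMP6 replicate 4, above 3.61 to 3.65 on the other 3 arrays (gap over range 0.893). CXCL8 stood at 10.77 in LH+BMP6 replicate 2, above 10.35 to 10.41 on the other 3 arrays (gap over range 0.868). IL1R1 stood at 7.72 in LH+BMP6 replicate 1, above 7.27 to 7.31 on the other 3 arrays (gap over range 0.913). IL4R stood at 8.88 in BMP6 replicate 2, above 8.20 to 8.27 on the other 3 arrays (gap over range 0.894).

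BMP6 replicate 1 was the low array for CCL20, IL1B, IL10RA and IL33, and LH replicate 1, which had the lowest leukocyte marker level (6.13), for CCL2 and IL2RG. The part of cell composition in these gaps was not tested.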

How the results depend on the processing

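The comparisons of LH and the interaction had 0 called members under all alternatives run, and no called difference changed sign. With BMP6 against control, members called higher numbered 14 when the low hybridisation-control signal was a term of the fit, against 24, and 15 to 29 when single arrays or whole replicate numbers were left out, with 15 without control replicate 2. Members called lower numbered 1 when dim probe sets were left out, which kept 55 of the 91 members, and 3 to 4 in the leave-one-out fits. With LH+BMP6 against LH, members called higher numbered 20 to 32 and those called lower 3 to 4 in the leave-one-out fits. The median difference over the members was 0.56 with BMP6 and 0.54 with LH+BMP6 when dim probe sets were left out, as fewer members were measured. Of the 28 calls with BMP6, 15 held under every alternative run for the gene, and of the 32 with LH+BMP6, 18 did. Same-numbered arrays correlated, in their deviations from the group means, by 0.08 to 0.69 between LH+BMP6 and BMP6, 0.02 to 0.32 between LH and control, -0.11 to 0.15 between BMP6 and control and 0.09 to 0.27 between LH+BMP6 and LH. In the last, every array correlated best with its own number, a hint from the data and not from the labels. With the replicate block as a fixed term 29 members were higher and 4 lower with BMP6, and 34 and 3 with LH+BMP6. With the block as a random effect these were 28 and 4, and 35 and 4. The share of all probe sets called was not counted under any of the alternatives. With LH+BMP6, CCL4 and TNFRSF6B were called with the block as a fixed term (adjusted p = 0.0268 and 0.0312) and as a random effect (adjusted p = 0.0453 and 0.0361). With BMP6, IL2RG and IL1RN were called with the fixed block (adjusted p = 0.0186 and 0.0227) and TNFAIP6 with the random one (adjusted p = 0.0459). Signals near background, as for the 21 members under the lower quartile, limit what could be seen of a change.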
